A study of Homo sapiens with 6 samples.

Results

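The aldo-keto reductases were described in Huh7-R cells, a pool of sorafenib-resistant cells derived from the human hepatocellular carcinoma line Huh7. The family was taken as 10 genes by symbol: AKR1C1, AKR1C2, AKR1C3, AKR1C4, AKR1B1, AKR1B10, AKR1D1, AKR1A1, AKR7A2 and AKR7A3. Of these, 8 had a value among the 16305 genes measured, and AKR1D1 and AKR7A3 were not analysed here. The genes were matched by symbol, but the family was selected on its measured difference between fostamatinib and DMSO, so that difference is described for them without a test.

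RNA sequencing was performed on 6 samples, 3 treated with fostamatinib and 3 with the vehicle DMSO. Fostamatinib is the prodrug of an inhibitor of the spleen tyrosine kinase SYK. The study did not detect SYK protein in Huh7 cells. Treatment lasted 24 h in both groups and the labels give 2 uM for both agents. All 6 samples came from the same resistant pool, called Huh7SR in the labels, and the study's methods state that sorafenib was withdrawn 5 to 7 days before experiments. Treatments were applied in triplicate, but nothing says whether the 3 samples of a group were grown separately. The p-values and standard errors rest on the spread between the samples of a group, which may be technical. That spread is taken in part from other genes of similar level. Each library held 13303451 to 15272737 reads over the measured genes, and the log2 values of pairs of libraries correlated at 0.995 to 0.996 within a group and at 0.973 to 0.976 between groups. Albumin, alpha-fetoprotein and the other hepatocyte markers were measured in every library (14 of 14 listed), while 1 of 4 endothelial markers had a value. Of the fibroblast markers, 5 of 6 had a value.

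Aldo-keto reductases are NADPH-dependent enzymes that reduce aldehydes and ketones to alcohols. The AKR1C enzymes act as hydroxysteroid dehydrogenases and also reduce carbonyls of drugs and of lipid peroxidation products. AKR1B1 is aldose reductase, the first enzyme of the polyol pathway, AKR1B10 reduces retinal and aliphatic aldehydes, AKR1A1 is aldehyde reductase, and AKR7A2 reduces aflatoxin dialdehyde and succinic semialdehyde. In liver the AKR1C enzymes take part in steroid and bile acid metabolism, and AKR1C and AKR1B10 genes are widely used as readouts of the transcription factor NRF2.

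The 4 AKR1C genes lie in a cluster on chromosome 10 (GRCh37, the same build as hg19), with AKR1C5P and AKR1C8 between AKR1C3 and AKR1C4. AKR1C1 spans chr10:5005445-5025475 on the plus strand, AKR1C2 chr10:5029967-5060223 on the minus strand, AKR1C3 chr10:5077546-5149878 on the plus strand and AKR1C4 chr10:5237425-5260912 on the plus strand. AKR1B1 (chr7:134127108-134144036, minus strand) and AKR1B10 (chr7:134212319-134226164, plus strand) are neighbours on chromosome 7. AKR1A1 (chr1:46016215-46035721, plus strand) and AKR7A2 (chr1:19630459-19638638, minus strand) lie on chromosome 1.

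The means of the 4 AKR1C genes of the cluster all stood more than 2-fold higher with fostamatinib, that of AKR1C4 on few reads and with overlapping groups. Their promoters are shown together. The sequences are the 120 bases before each start site in RefSeq (GRCh38.p14, a later build than that of the reads), 5′ to 3′ on the strand of the gene. Capitals mark the stretch in which CCAAT, read on the opposite strand, runs into the palindrome GTTAAC with 1 base in common. AKR1C3 has 2 annotated start sites. The stretches are chr10:4963295-4963414 (AKR1C1), chr10:5003858-5003977 (AKR1C2), chr10:5048661-5048780 and chr10:5094294-5094413 (AKR1C3) and chr10:5196717-5196836 (AKR1C4).
AKR1C1: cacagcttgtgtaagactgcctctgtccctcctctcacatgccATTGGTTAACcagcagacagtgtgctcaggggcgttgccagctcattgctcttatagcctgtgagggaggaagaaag
AKR1C2: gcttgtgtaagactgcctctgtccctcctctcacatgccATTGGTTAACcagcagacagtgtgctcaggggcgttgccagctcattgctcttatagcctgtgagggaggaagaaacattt
AKR1C3 start 1: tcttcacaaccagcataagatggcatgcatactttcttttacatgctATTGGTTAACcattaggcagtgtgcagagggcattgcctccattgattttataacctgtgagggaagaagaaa
AKR1C3 start 2: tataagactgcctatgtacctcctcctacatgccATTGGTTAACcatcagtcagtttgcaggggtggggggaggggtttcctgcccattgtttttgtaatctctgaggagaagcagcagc
AKR1C4: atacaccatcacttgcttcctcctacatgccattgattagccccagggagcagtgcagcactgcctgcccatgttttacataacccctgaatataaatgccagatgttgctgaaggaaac

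Over the full RefSeq windows of 300 bases, which run from 250 bases before to 50 after the start, AKR1C1 and AKR1C2 were identical at 288 of 292 aligned bases (98.6%). The other pairs of AKR1C windows were identical at 76.2% to 81.6% of aligned bases. The joint stretch ATTGGTTAAC began at -77 in AKR1C1, at -81 in AKR1C2, and at -73 and -86 in the windows of AKR1C3, counted from the start site, and these letters were not in the AKR1C4 window. On either strand it was found in 15 of the 35116 RefSeq promoter windows of the same length (0.0427%), and 4 of the 15 are these AKR1C windows. CCAAT was found in 34.6% of all windows and GTTAAC in 2.64%. GTTAAC and the joint stretch were picked from the AKR1C windows themselves, so their shares are a description and no measure of how rare such a match is. The antioxidant response element core TGACNNNGC (13.3% of all windows), the xenobiotic response element core GCGTG (36.5%) and the AP-1 site TGANTCA (7.71%) were in none of the AKR1C windows on either strand. AKR7A2 held TGACNNNGC 3 times and GCGTG 1 time, and the AKR1B1 windows each held 1 CCAAT and 1 GCGTG. These are matches of letters within the 300 bases. Sites further from the start were not searched, and no binding was measured.

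The AKR1C genes had the largest differences of the family. AKR1C1, a 20α-hydroxysteroid dehydrogenase that inactivates progesterone, measured 495, 523 and 532 CPM (reads scaled to a common library size) with DMSO and 1432, 1396 and 1405 CPM with fostamatinib. All 3 fostamatinib samples lay far above all 3 DMSO samples. On the log2 CPM scale the mean went from 9.01 ± 0.055 (SD, n = 3) to 10.46 ± 0.019 (SD, n = 3), a difference of 1.45 with a standard error of 0.034, or 2.73-fold.

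AKR1C2, a 3α-hydroxysteroid dehydrogenase that reduces dihydrotestosterone, measured 554, 555 and 574 CPM with DMSO and 1448, 1475 and 1465 CPM with fostamatinib. The groups were again wide apart, and replicates of a group lay close together. The log2 difference was 1.38 with a standard error of 0.032, or 2.61-fold.

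AKR1C3, a 17β-hydroxysteroid dehydrogenase and prostaglandin F synthase, was lower in level and had a log2 difference close to those of its neighbours. It measured 68.9, 73.7 and 72.1 CPM with DMSO and 184, 187 and 178 CPM with fostamatinib, with no overlap. The log2 difference was 1.35 with a standard error of 0.046, or 2.55-fold. Among all 16305 genes ordered from the largest rise, AKR1C1, AKR1C2 and AKR1C3 stood at places 356, 389 and 406.

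AKR1C4, the liver-enriched 3α-hydroxysteroid dehydrogenase of bile acid synthesis, was barely detected. It had 10, 6 and 3 reads with DMSO and 17, 7 and 13 reads with fostamatinib. The groups overlapped, with the second fostamatinib sample below the first DMSO sample. Its log2 difference of 1.05 had a standard error of 0.47, and at this depth a difference was not established. The value moved from 0.63 without the third DMSO sample to 1.47 without the first, so that single libraries decided it.

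**Figure D1:**
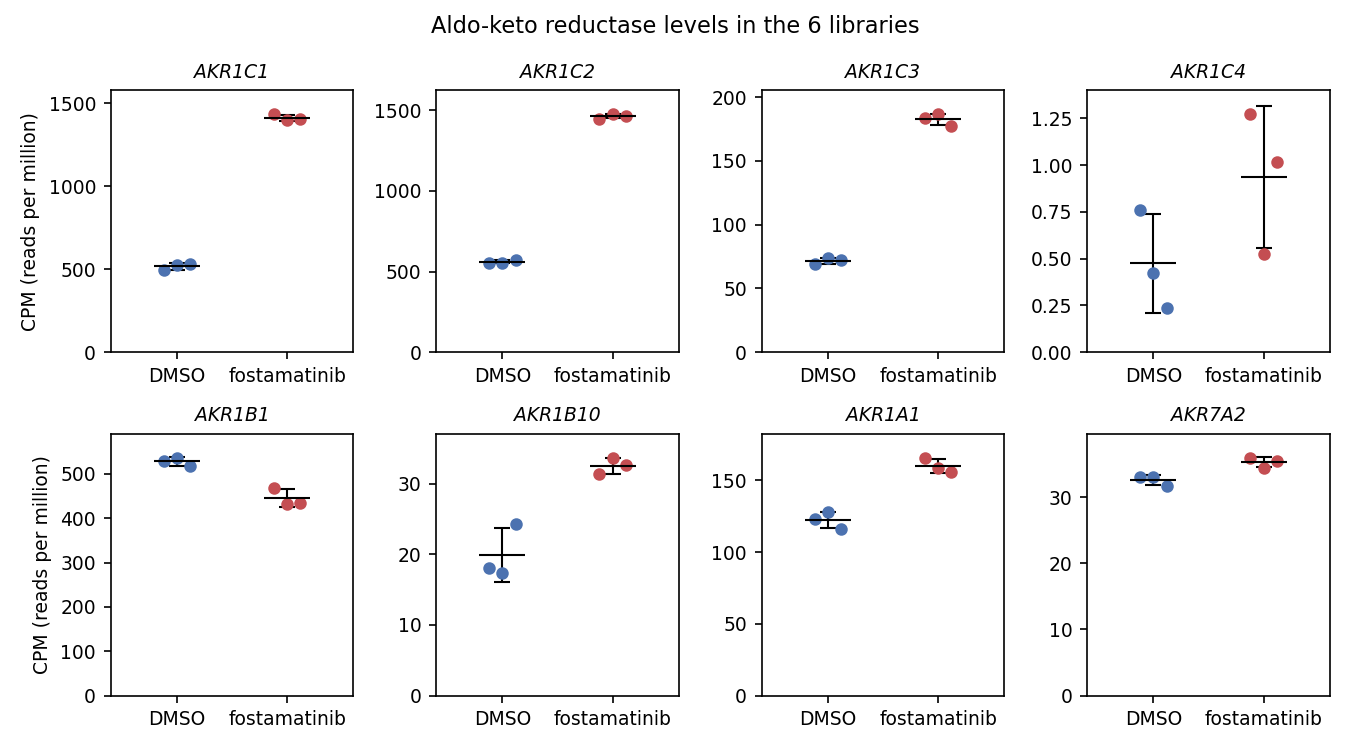
Level of each aldo-keto reductase in CPM (reads scaled to a common library size, linear axes from 0, a scale of its own in each panel) in the 3 DMSO samples (blue) and the 3 fostamatinib samples (red), with the mean (bar) and the SD. AKR1C1, AKR1C2 and AKR1C3 stand more than 2-fold higher with fostamatinib, AKR1B1 stands lower, and the groups overlap in AKR1C4 alone of the 8.

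The AKR1B genes differed in direction. AKR1B1, which reduces glucose to sorbitol, was the member with lower levels after fostamatinib, at 530, 536 and 518 CPM with DMSO and 468, 432 and 433 CPM with fostamatinib. The groups did not overlap. The log2 difference was -0.25 with a standard error of 0.037, or 0.842 of the DMSO level.

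AKR1B10, its neighbour on chromosome 7, measured 18.0, 17.4 and 24.3 CPM with DMSO and 31.4, 33.6 and 32.6 CPM with fostamatinib. The third DMSO sample stood above the other two, although below every fostamatinib sample. The log2 difference was 0.72 with a standard error of 0.090, or 1.65-fold, and without the third DMSO sample it was 0.88. The log2 level of AKR1B1 exceeded that of AKR1B10 by 4.41 to 4.95 with DMSO and by 3.68 to 3.90 with fostamatinib, values that are not scaled for length.

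AKR1A1 and AKR7A2, expressed in most tissues, differed least among the members with higher means. AKR1A1, which reduces glucuronate among other aldehydes, measured 123, 128 and 116 CPM with DMSO and 166, 159 and 156 CPM with fostamatinib. These groups were apart, with a log2 difference of 0.39 and a standard error of 0.045, or 1.31-fold. AKR7A2 measured 33.0, 33.1 and 31.7 CPM with DMSO and 35.9, 34.4 and 35.5 CPM with fostamatinib. Its groups did not overlap either, yet the log2 difference of 0.11 was less than 2 times its standard error of 0.065. That standard error draws in part on genes of similar level. The gene's own log2 values spread little, with an SD of 0.033 with DMSO and 0.032 with fostamatinib.

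**Figure D2:**
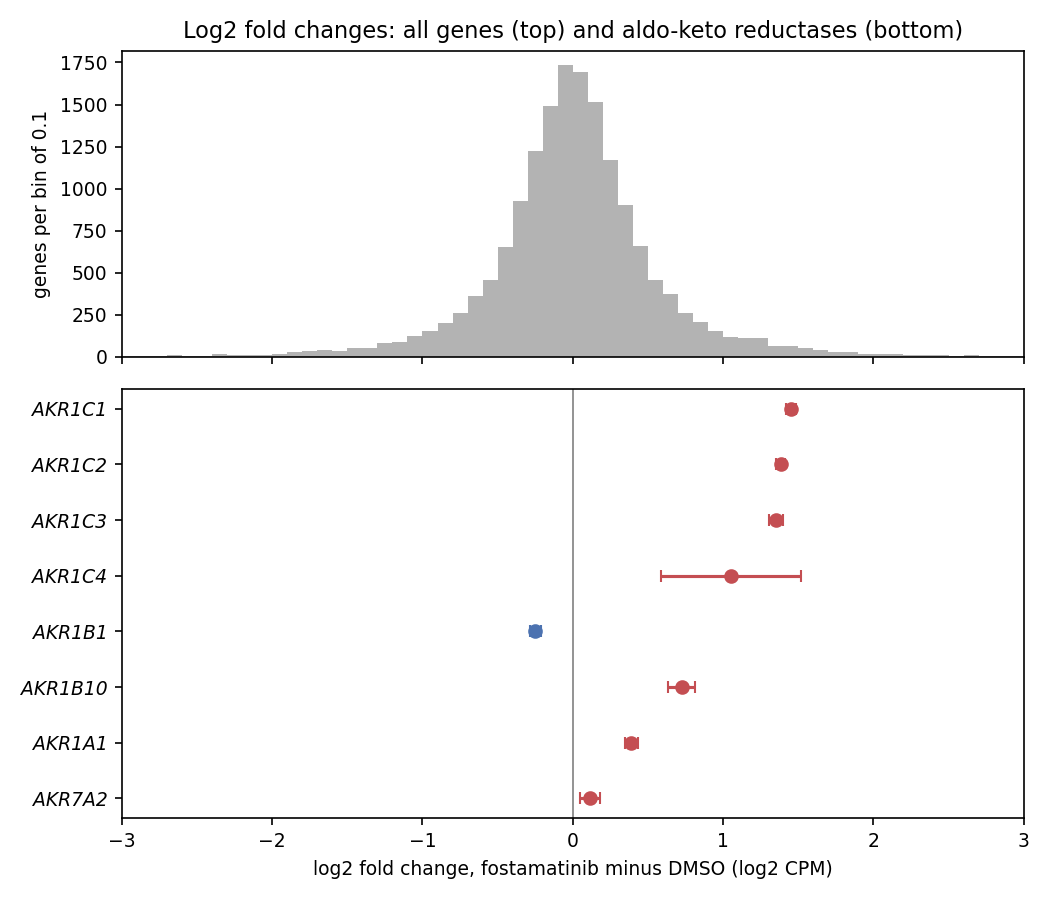
Log2 fold changes of fostamatinib against DMSO over the 16305 genes (top, number of genes per bin of 0.1) and for each aldo-keto reductase (bottom, points with their standard error, red above 0 and blue below). The axis runs from -3 to 3, and the few genes beyond it are not drawn. The 3 abundant AKR1C genes stand at 1.35 to 1.45, AKR1C4 has the widest error, and AKR1B1 is to the left of 0.

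In the linear model fitted over all genes (limma, adjusted p under 0.05), 5 of the 8 members were called higher, 1 was called lower and 2, AKR1C4 and AKR7A2, were not called. Of all genes, 47.8% were called, 23.3% higher and 24.5% lower. In 6 members the 3 fostamatinib samples all lay above the DMSO samples, in 1 they all lay below and in 1 the groups overlapped. Over all genes 26.8% lay wholly above and 27.4% wholly below. The means of 4 members differed by more than 2-fold, and 3 of these, AKR1C1, AKR1C2 and AKR1C3, were called, as were 3.85% of all genes upward. The median log2 difference of the 8 members was 0.89, while that of all genes was 0.0015, with 5% of all genes under -0.91 and 5% above 0.98. Since this contrast served to group the family, nothing further is read from these counts.

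The make-up of the family differed between the groups. The 8 members summed to 1823, 1867 and 1868 CPM with DMSO and to 3766, 3717 and 3707 CPM with fostamatinib. The AKR1C genes took 62.1% ± 0.88 (SD, n = 3) of the family's reads with DMSO and 82.0% ± 0.51 (SD, n = 3) with fostamatinib, while the share of AKR1B1 went from 28.5% ± 0.70 to 11.9% ± 0.44 (SD, n = 3). AKR1C1, AKR1C2 and AKR1C3 together held 0.115% of all reads with DMSO and 0.306% with fostamatinib. In the order of all genes by reads, AKR1C2 moved from places 184 to 198 to places 36 to 40, and AKR1C1 from places 214 to 238 to place 42 in each fostamatinib sample. AKR1B1 stood at places 210 to 227 with DMSO and at places 247 to 278 with fostamatinib.

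Within the cluster the proportions of the genes were nearly kept. There were 0.893, 0.942 and 0.928 reads of AKR1C1 for each read of AKR1C2 with DMSO, and 0.989, 0.947 and 0.959 with fostamatinib. The ranges did not overlap, but the gap between them was smaller than the spread within either group. The ratio of AKR1C3 to AKR1C2 was 0.128 ± 0.0045 (SD, n = 3) with DMSO and 0.125 ± 0.0031 (SD, n = 3) with fostamatinib, and these ranges overlapped.

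How far AKR1C1 and AKR1C2 can be told apart depends on where reads with several matching positions were counted, which is not given in the sources used here. Of the 50-base windows of the canonical AKR1C2 transcript (GENCODE, on GRCh37), 45.7% were found in AKR1C1, and 22.3% of those of AKR1C1 were found in AKR1C2. With any other aldo-keto reductase gene or pseudogene AKR1C3 shared 18.6% of its windows, AKR1B10 16.3%, AKR1C4 14.2%, AKR7A2 8.01% and AKR1B1 4.95%, whereas AKR1A1 shared 0 of 1358. At 100 bases the shares were 27.8% for AKR1C2, 12.6% for AKR1C1 and 7.82% for AKR1C3. The separate values of AKR1C1 and AKR1C2 are uncertain to that extent, and those of AKR1C4, with few reads beside abundant paralogs, more so. AKR1C3 also shares 84 exon bases with RP11-499O7.4 on the same strand, and AKR1C4 shares 83 with a gene on the opposite strand.

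**Figure D3:**
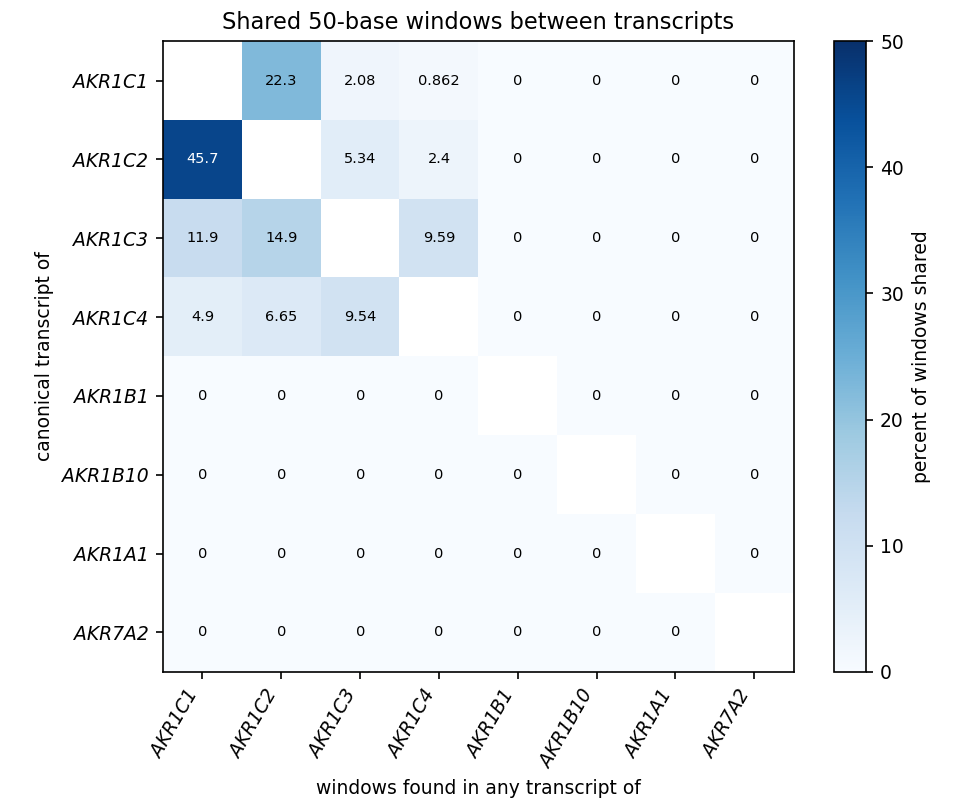
Percent of the 50-base windows of each canonical transcript (rows) that occur in any transcript of the other members (columns), darker for more. AKR1C2 shares 45.7% of its windows with AKR1C1, sharing among the 8 members is confined to the 4 AKR1C genes, and pseudogenes and other family genes are not drawn.

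Levels of different members were compared as CPM per kb of transcript. With the longest annotated transcript as the length, the order in the DMSO samples was AKR1B1 (388 ± 6.8 CPM per kb, SD, n = 3), AKR1C2 (175 ± 3.4), AKR1C1 (79.0 ± 3.0), AKR1A1 (67.2 ± 3.2), AKR1C3 (50.9 ± 1.7), AKR7A2 (24.0 ± 0.55), AKR1B10 (12.3 ± 2.4) and AKR1C4 (0.34 ± 0.19). No neighbours in that order overlapped in range. In the fostamatinib samples AKR1C2 led with 455 ± 4.3 CPM per kb, followed by AKR1B1 with 327 ± 15, AKR1C1 with 216 ± 2.9 and AKR1C3 with 130 ± 3.2, which had passed AKR1A1 with 88.1 ± 2.8 (SD, n = 3).

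The order at the top depended on the length used. The longest AKR1C1 transcript has 6543 bases and that of AKR1C2 3215, although the coding length of both is 969 bases. Per kb of coding length, a choice added after the data were seen, the DMSO levels were 579 ± 11 CPM per kb for AKR1C2, 557 ± 9.8 for AKR1B1 and 533 ± 20 for AKR1C1 (SD, n = 3), where the ranges of AKR1B1 and AKR1C1 overlapped. With fostamatinib they were 1509 ± 14 for AKR1C2, 1456 ± 19 for AKR1C1 and 469 ± 21 for AKR1B1 (SD, n = 3). By this length AKR1B10, with 34.3 ± 1.2, and AKR7A2, with 32.8 ± 0.73, overlapped in the fostamatinib samples. AKR1C4 was last by both lengths in both groups.

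**Figure D4:**
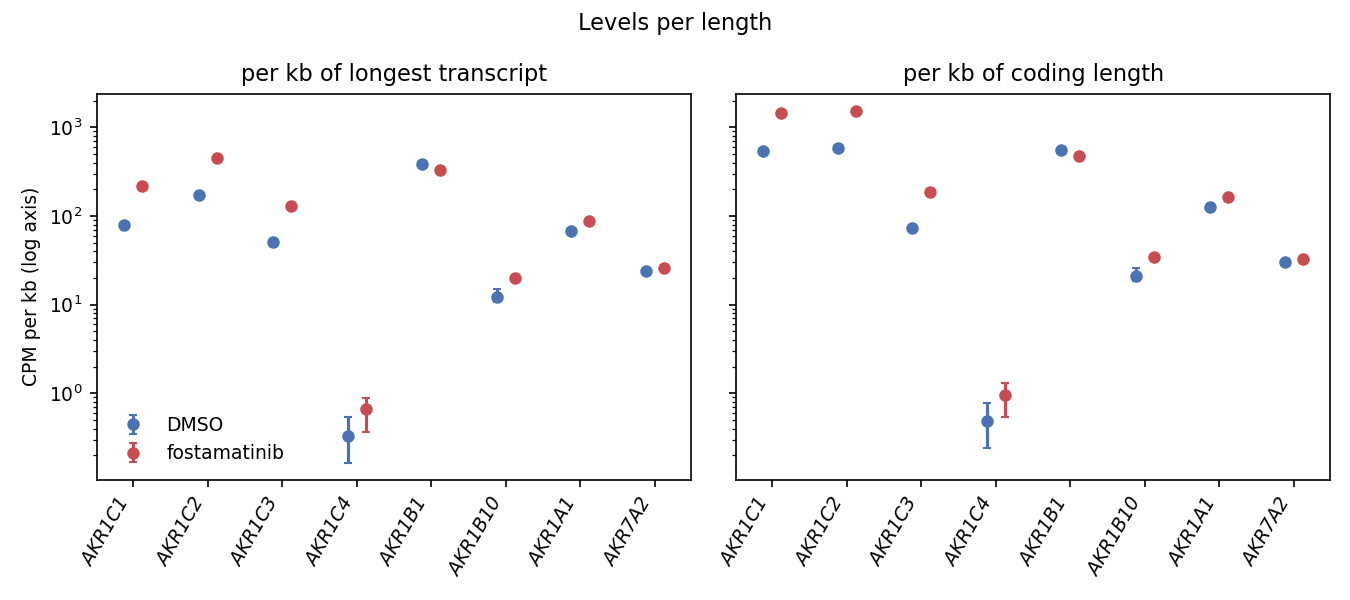
Level of each member in CPM per kb (log axis) in the DMSO (blue) and fostamatinib (red) samples, divided by the longest transcript (left) or by the coding length (right), as the mean with bars from the lowest to the highest of 3 samples. The mean of AKR1B1 is above that of AKR1C1 with DMSO by both lengths, and with fostamatinib only by the longest transcript.

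The genes outside the family whose pattern over the 6 samples was most like that of AKR1C1, by Euclidean distance of log2 CPM relative to the DMSO mean, among 11712 genes with enough reads, were DPYSL3 (distance 0.133), A2M (0.165) and DUSP9 (0.174). Their log2 differences were 1.45, 1.45 and 1.50. Within the family, AKR1C2 lay at a distance of 0.137 from AKR1C1, nearer than A2M and DUSP9, and AKR1C3 at 0.183. For AKR1B1 the nearest genes outside the family were PDAP1 (0.0336), EFTUD2 (0.0370) and PIGU (0.0393). With 2 groups of 3 samples this distance mostly reflects the size of the difference.

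Hepatocyte genes were higher in the same samples as the AKR1C genes. All 14 hepatocyte markers were called higher with fostamatinib (limma, 23.3% of all genes), with a median log2 difference of 0.52, and their summed level went from 5489 to 5862 CPM with DMSO to 7529 to 7970 CPM with fostamatinib. CD14 and LYZ, the immune markers with a value, summed to 9.83 to 11.2 CPM with DMSO and to 9.67 to 11.7 CPM with fostamatinib. PECAM1, the endothelial marker with a value, was also called higher and went from 6.13 to 6.96 CPM to 8.76 to 9.93 CPM, a log2 difference of 0.51. The fibroblast markers summed to 297 to 306 CPM with DMSO and 308 to 312 CPM with fostamatinib, and went both ways, with COL1A2 (log2 difference 0.37) and PDGFRB (0.95) called higher, LUM (-0.40) called lower and 2 not called. The part of these differences in the values of the family was not tested. In bulk RNA, more cells with high levels and more RNA in each cell cannot be told apart.

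Genes of neighbouring pathways, listed by function and tested in the same model, were compared with the family next. The lists were drawn up with earlier results of these data known, which limits what their p-values and counts show. The other aldo-keto reductase genes were near the limit of detection. Only AKR1B15 and KCNAB3 of 10 listed had a value, with 5 to 8 and 7 to 12 reads per library, and neither was called (limma adjusted p = 0.616 and 0.56). AKR1B15, the paralog nearest to AKR1B10, had a log2 difference of 0.30 with a standard error of 0.45.

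Carbonyl-reducing short-chain dehydrogenases, which reduce many of the same substrates with another fold, went both ways. Of 20 measured, 6 were called higher, 5 lower and 9 not, beside 23.3% of all genes called higher and 24.5% lower. The median log2 difference was 0.11. With each sample left out, 8 to 10 of the 20 were called. DHRS1 rose by a log2 difference of 0.74 (SE 0.072, limma adjusted p = 8.66e-11), and RDH13, a retinol dehydrogenase of mitochondria, fell by 0.61 (SE 0.081, limma adjusted p = 7.15e-08). CBR3, a carbonyl reductase, rose from 4, 0 and 4 reads to 7, 8 and 6 (limma adjusted p = 0.0289). DHRS9, a retinol dehydrogenase, fell from 5, 6 and 5 reads to 0, 1 and 0 (limma adjusted p = 0.00496). CBR3 passed the study's read filter only through its fostamatinib samples and DHRS9 only through its DMSO samples. Each was thus kept because of the group where it is higher. Their p-values are no evidence of a difference, although the counts above include these genes. Both rest on a few reads, and the call of CBR3 was lost without the second DMSO sample, when its log2 difference of 1.87 became 0.79, without any 1 of the fostamatinib samples, and without a variance trend (limma adjusted p = 0.177).

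Some steroid-converting enzymes share substrates with the AKR1C enzymes. Of 17 measured among 25 listed, 5 were called higher, 1 lower and 11 not, beside 47.8% of all genes called in either direction, with a median log2 difference of 0.26. HSD17B12, which elongates fatty acids and reduces estrone, fell by 0.81 on the log2 scale (SE 0.059, limma adjusted p = 7.49e-14). HSD17B1, which makes estradiol, rose from 3, 2 and 1 reads to 8, 7 and 6 (limma adjusted p = 0.0169), and HSD17B3, the testosterone-forming enzyme of the testis, from 7, 2 and 15 reads to 18, 15 and 15 (limma adjusted p = 0.0127). HSD17B1 passed the study's read filter only through its fostamatinib samples, where it is higher. Its p-value is therefore no evidence of a difference, although the count called higher includes it. The call of HSD17B1 was lost without the third DMSO sample, when its log2 difference was 1.41, or without the first fostamatinib sample, when it was 1.65. The call of HSD17B3 was lost without the second DMSO sample, when its log2 difference was 0.67, without the first fostamatinib sample, when it was 1.32, or without a variance trend (limma adjusted p = 0.165).

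Of the enzymes of bile acid synthesis, the pathway in which AKR1C4 and AKR1D1 act, 9 of 13 listed were measured. Of these, 4 were called higher, 2 lower and 3 not (median log2 difference 0.059), beside 23.3% of all genes called higher and 24.5% lower. BAAT, which conjugates bile acids to glycine and taurine, rose from 13, 31 and 20 reads to 71, 61 and 60, a log2 difference of 1.73 (SE 0.23, limma adjusted p = 1.25e-07). AMACR, a racemase of bile acid intermediates, rose by 0.72 (SE 0.19, limma adjusted p = 0.00153). SLC27A2 and SLC27A5, which activate bile acids and long fatty acids with coenzyme A, fell by 1.23 (SE 0.36, limma adjusted p = 0.00535) and by 1.05 (SE 0.41, limma adjusted p = 0.0336), both at under 25 reads per library. The call of SLC27A5 was lost without the first (log2 difference -0.84) or the third (-1.07) DMSO sample, or the first fostamatinib sample (-0.78), and without a variance trend (limma adjusted p = 0.0507).

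The genes often used with the AKR1C genes as readouts of NRF2 did not share 1 direction. All 23 listed were measured, of which 10 were called higher, 7 lower and 6 not, with a median log2 difference of 0.052. Of all genes, 23.3% were called higher and 24.5% lower. With each sample left out 15 to 17 of the 23 were called, and 15 to 18 under the other alternatives. ABCC2, an exporter of conjugates, rose by a log2 difference of 0.86 (SE 0.061, limma adjusted p = 2.82e-14), and GPX2, a glutathione peroxidase, rose from 5, 7 and 8 reads to 16, 13 and 14 (limma adjusted p = 0.0136), a call lost without the first fostamatinib sample, when its log2 difference was 1.08. SLC7A11, the cystine transporter, fell from 812, 840 and 868 reads to 209, 252 and 241, by 1.76 on the log2 scale (SE 0.073, limma adjusted p = 1.05e-20). ME1, malic enzyme, fell by 0.50 (SE 0.055, limma adjusted p = 1.1e-09).

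Of the regulators of NRF2, 3 of 8 were called higher, 3 lower and 2 not, beside 23.3% of all genes called higher and 24.5% lower. NFE2L2, the gene of NRF2 itself, had a log2 difference of 0.05 (SE 0.036, limma adjusted p = 0.227), and CUL3, a scaffold of the ligase that degrades NRF2, of -0.10 (SE 0.046, limma adjusted p = 0.0646). BACH1, a repressor at NRF2 sites, fell by 0.48 (SE 0.051), and the small partner proteins MAFF and MAFG fell by 1.35 (SE 0.12) and 0.36 (SE 0.052). KEAP1, the sensor that binds NRF2, rose by 0.15 (SE 0.052), MAFK by 0.14 (SE 0.054) and SQSTM1, which binds KEAP1, by 0.12 (SE 0.033), with limma adjusted p of 0.0188, 0.0333 and 0.00271. The call of KEAP1 was lost without the third DMSO sample (log2 difference 0.11), or without the first (0.13) or second (0.13) fostamatinib sample. That of MAFK was lost without the same 3 samples, with log2 differences of 0.07, 0.14 and 0.12, and with scaling by library size alone (0.13, limma adjusted p = 0.0533). Without a variance trend the calls of KEAP1, MAFK and SQSTM1 were lost, leaving 3.

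In the polyol and fructose pathway, which AKR1B1 opens, 3 of the 4 genes measured of 6 listed rose while AKR1B1 itself stood lower. All 3 were called higher, as were 23.3% of all genes. SORD, which oxidises sorbitol to fructose, went from 1574, 1603 and 1633 reads to 2569, 2651 and 2602, a log2 rise of 0.79 (SE 0.044, limma adjusted p = 5.89e-17). GLYCTK, glycerate kinase, rose by 1.21 (SE 0.079, limma adjusted p = 3.42e-15) and TKFC, triokinase, by 0.35 (SE 0.058, limma adjusted p = 4.07e-06). KHK, ketohexokinase, had a log2 difference of 0.06 (SE 0.17, limma adjusted p = 0.775).

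Among enzymes that handle aldehydes beside AKR7A2 and AKR1A1, 7 of 8 listed were measured, with a median log2 difference of 0.47. Of these, 5 were called higher, 1 lower and 1 not, beside 23.3% of all genes called higher and 24.5% lower. ADH6, an alcohol dehydrogenase, rose from 10, 14 and 17 reads to 54, 60 and 71 and ADHFE1, which oxidises 4-hydroxybutyrate, from 12, 11 and 11 reads to 35, 39 and 37, log2 differences of 2.24 (SE 0.24) and 1.75 (SE 0.27). ALDH5A1 and ABAT, which handle succinic semialdehyde and GABA, rose by 0.57 (SE 0.080) and 0.42 (SE 0.096), and HAGH, glyoxalase 2, rose by 0.47 (SE 0.082), a call lost without a variance trend (limma adjusted p = 0.052), which left 5 of the 7 called. GLO1, glyoxalase 1, fell by 0.38 (SE 0.042), and ADH5 had a log2 difference of 0.06 (SE 0.041).

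**Figure D5:**
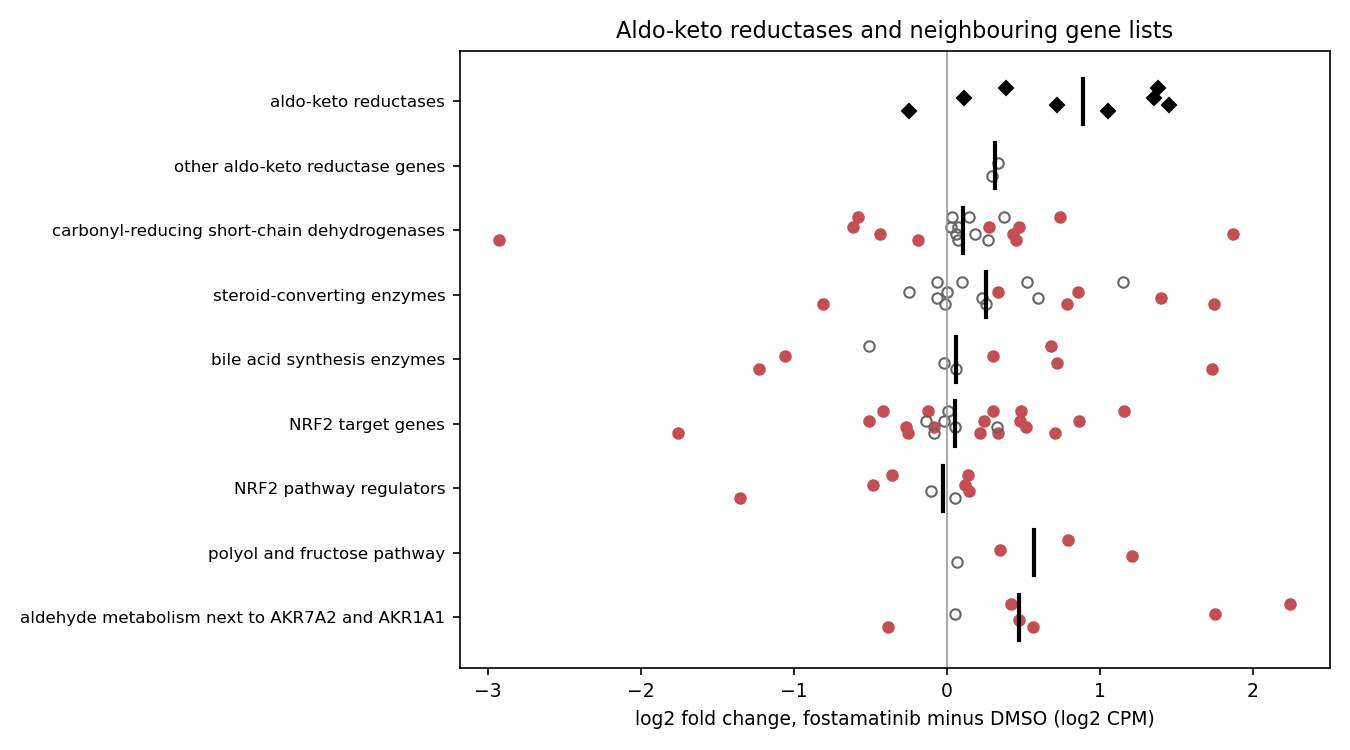
Log2 fold changes of fostamatinib against DMSO for the 8 aldo-keto reductases (black diamonds, not tested) and for the genes of each neighbouring list (red, called at adjusted p under 0.05 in limma; open, not called), with the median of each row as a vertical bar. The family's median is 0.89, those of the NRF2 targets and the bile acid enzymes are 0.052 and 0.059, and each list with more than 4 genes holds values on both sides of 0.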

How the data were processed

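The study mapped reads to hg19 with HISAT and counted them per gene with featureCounts on GENCODE v.22. Its filter dropped a gene when 2 or more of the 3 samples had under 5 reads, in both groups, and the counts were normalized by TMM. The deposited values are log2 CPM with 0.5 added to each count. Whole reads were recovered for 100% of values within 0.05 of a whole number, and a gene with repeated rows was used once, leaving 16305 of 16311 rows. How reads matching several places, and their strand, were counted is not given in the sources used here.

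Log2 CPM were fitted with limma 3.58.1 (R 4.3.3), letting the prior variance follow the mean, p-values were adjusted over all genes by the Benjamini-Hochberg method, and genes were called at adjusted p under 0.05. Each standard error joins the gene's own spread (4 residual degrees of freedom) with that of genes of similar level (median total 33.9). The fit was checked on simulated data, with changes of 2-fold or more in genes with at least 50 mean reads. That check does not cover calls on low genes or on smaller changes. With 3 samples against 3, the smallest exact permutation p is 0.1. Fold changes are on the log2(CPM) scale and understate changes of low genes. The members and gene lists were chosen with earlier results of these data known. Of each neighbouring list, the 2 called genes with the largest rise and fall, and all genes of lists of up to 8, were named. For likeness, the 3 nearest genes outside the family with at least 50 mean reads in the higher group were named. Lengths and shared windows came from GENCODE v44 on GRCh37, and promoters from RefSeq for 9 members. AKR1B10 had no promoter window there. 1 listed marker is not reported here.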

Additional observations from a re-analysis of the deposited data

How the results depend on the processing

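With each sample left out, the log2 differences ranged from 1.42 to 1.47 for AKR1C1, 1.37 to 1.40 for AKR1C2, 1.33 to 1.37 for AKR1C3, 0.63 to 0.88 for AKR1B10, 0.35 to 0.42 for AKR1A1, 0.10 to 0.13 for AKR7A2 and -0.29 to -0.23 for AKR1B1. Calls on members are no sign of stability, since the family was selected on this contrast. The value of AKR1C4 passed the threshold with a pseudocount of 2 reads, with the replicate block, and without the first DMSO or the second fostamatinib sample. The family's median log2 difference of 0.89 was 0.72 with at least 10 reads required in every sample, which removes AKR1C4, 0.81 with a pseudocount of 2 reads, and 0.75 to 1.02 with each sample left out. Without a variance trend 3 of the NRF2 regulators were called in place of 6, and the cause was not tested. Per kb, AKR1C1 and AKR1C2 held 31.8% of the family's summed DMSO level by the longest transcript, 39.5% by the union of exons, 57.9% by coding length, 30.7% by canonical transcript (the last 2 chosen after seeing the data), and 31.4% to 32.1% with each sample left out. Replicate numbers shared by the groups did not pair the samples, whose deviations correlated at 0.028, -0.019 and 0.013. With the number as a replicate block, 48.9% of all genes were called in place of 47.8%. Of all genes, 6382 to 7850 were called under the other alternatives and 6958 to 7480 with each sample left out.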
